A study of Mus musculus with 4 samples.

Results

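The genes described here encode the class I and class II molecules of the mouse major histocompatibility complex (MHC), together with B2m, the light chain shared by class I molecules. They were taken as the array probes whose annotated symbol starts with H2- or is B2m. Of 9127 named genes on the array, 21 met that rule, 16 of them gave a usable spot on at least 2 of the 4 arrays, and the 10 with the highest mean background-subtracted intensity over the arrays were kept. That mean was 47.3 for H2-DMa, the dimmest gene kept, and 37.7 for H2-Q7, the brightest left out. The genes were thus selected on their measured levels, and a high level among them is no finding.

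RNA of kidney cortex was read on 4 CodeLink arrays with a single dye, 1 per group, and all mice were male and of the C57BL/6J strain. Diabetic ICAM-1-/- mice (DM-KO) and diabetic ICAM-1+/+ mice (DM-WT) were injected once into the peritoneum with streptozotocin, a toxin of the insulin-producing beta cells, at 200 mg/kg and 8 weeks of age, and were kept in the study where blood glucose then passed 16 mmol/L. Nondiabetic ICAM-1-/- mice (ND-KO) and nondiabetic ICAM-1+/+ mice (ND-WT) received the citrate buffer alone, and all kidneys were taken 12 weeks after injection, at 20 weeks of age. The labels give 5 mice per group, do not say whether an array held pooled RNA or that of 1 mouse, and name no particular ICAM-1 allele. ICAM-1 is an adhesion molecule of endothelium and leukocytes through which leukocytes leave the blood. Its transcript was not analysed here, which leaves the genotype labels unchecked by the targeted gene.

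Each group has 1 array and no replicate, so 2 arrays can only be compared by the size of a difference. The error that could be measured was that of spotting: repeat spots of the bacterial control probes gave log2 differences between arrays with a median SD of 0.061. On each array, 62.8% to 66.2% of the 10032 probes for genes were usable. The spiked-in bacterial transcripts stood at 1.22 times their ND-WT level on DM-KO, 1.27 times on ND-KO and 0.555 times on DM-WT. The spots in columns 44 to 48 of the upper block, some of them dim on DM-WT, were marked as edge spots. H2-DMa, H2-Q7 and H2-T10 were printed there. The dimness did not hold for each of them. After background subtraction H2-DMa was at 3.15 on DM-WT and 63.0 on ND-WT, but H2-Q7 was at 44.2 on DM-WT and 33.4 on ND-WT. All 10 proximal tubule markers were usable on every array, whereas the podocyte markers Nphs1 and Podxl were above background on none. Wt1, the other podocyte marker on the array, was usable on ND-WT alone.

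Class I molecules present peptides made by the proteasome inside the cell to CD8 T cells and natural killer cells, and almost every nucleated cell carries them as a heavy chain paired with B2m. Class II molecules are pairs of an alpha and a beta chain that present peptides from the endosomes to CD4 T cells, and are made mainly by dendritic cells, macrophages and B cells. Interferon gamma increases the transcription of both classes, and in injured kidney the tubule epithelium can also display them. In cortex RNA, fewer cells of a type and less RNA per cell cannot be told apart.

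The promoters of B2m and H2-T23, both class I genes, and of H2-Aa and H2-Eb1, both class II genes, are shown because the results turn on these genes. Each runs from 250 bases before to 50 after the annotated start, 5′ to 3′ on the gene's own strand, from RefSeq on GRCm38.p6. Capitals mark matches to the letters searched for on both strands. The interferon-stimulated response element was searched in a first form, GAA and GAAAC around any 2 bases, and a second form, GAAA on either side of any 2 bases. The X box was AG, any 2 bases, AC, any base and GATG, the Y box core was CCAAT and the kappa B element was GGG and TTCC around any 2 bases. No match overlapped another in these 4 windows. B2m lies at chr2:122147437-122147736 on the plus strand, H2-T23 at chr17:36032652-36032951 on the minus strand, H2-Aa at chr17:34287774-34288073 on the minus strand and H2-Eb1 at chr17:34305617-34305916 on the plus strand.
B2m: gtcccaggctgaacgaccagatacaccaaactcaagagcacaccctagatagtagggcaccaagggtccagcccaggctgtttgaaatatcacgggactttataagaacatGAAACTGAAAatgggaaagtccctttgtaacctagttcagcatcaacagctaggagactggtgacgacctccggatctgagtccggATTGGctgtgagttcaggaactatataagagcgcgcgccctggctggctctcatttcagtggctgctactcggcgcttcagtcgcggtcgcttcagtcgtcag
H2-T23: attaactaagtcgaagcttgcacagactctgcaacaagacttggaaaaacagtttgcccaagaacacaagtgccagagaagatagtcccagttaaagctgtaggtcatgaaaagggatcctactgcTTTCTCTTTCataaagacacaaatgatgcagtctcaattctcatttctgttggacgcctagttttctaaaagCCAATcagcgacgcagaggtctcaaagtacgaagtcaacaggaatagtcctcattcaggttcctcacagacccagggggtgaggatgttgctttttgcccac
H2-Aa: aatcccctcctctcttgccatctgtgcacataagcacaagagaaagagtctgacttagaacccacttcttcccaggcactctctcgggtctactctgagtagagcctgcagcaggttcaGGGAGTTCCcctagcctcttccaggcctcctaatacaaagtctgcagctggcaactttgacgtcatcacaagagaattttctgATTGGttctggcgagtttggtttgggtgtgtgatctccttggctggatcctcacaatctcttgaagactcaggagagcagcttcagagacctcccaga
H2-Eb1: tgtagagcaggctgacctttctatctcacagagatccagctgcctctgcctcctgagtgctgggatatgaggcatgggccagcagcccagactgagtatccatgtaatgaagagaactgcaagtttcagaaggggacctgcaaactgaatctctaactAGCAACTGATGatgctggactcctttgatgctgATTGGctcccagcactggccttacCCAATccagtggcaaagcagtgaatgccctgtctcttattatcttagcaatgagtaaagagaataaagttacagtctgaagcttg

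Of the 10 genes, 9 were matched in the promoter table, all but H2-Ab1. The B2m window held the second form of the interferon element at position -139 from the start, and the H2-T23 window held it on the opposite strand at -124. The first form was found in H2-M3 and H2-Q6. Among all 32851 promoters of that length, 3.44% held the second form and 1.73% the first. The X box letters were found in H2-Eb1, at -92, against 0.97% of all promoters, and the kappa B letters in H2-Aa and H2-Q6, against 5.82%. CCAAT was present in all 9 matched genes, in H2-DMa in 1 of its 2 promoters, and in 37.4% of all promoters. A match describes letters and is no evidence of a bound site.

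B2m, which class I heavy chains need in order to fold and reach the cell surface, is encoded outside the MHC, at chr2:122147687-122153082. It had log2 intensities of 11.37 on DM-KO, 11.37 on ND-KO, 12.33 on DM-WT and 11.21 on ND-WT. The DM-WT array thus stood apart from the other 3, and the KO arrays differed by less than the repeat-spot SD. In the authors' deposited table, which is background-subtracted and scaled by 1 constant per array, B2m was at 57.9 on DM-KO, 60.9 on ND-KO, 118.0 on DM-WT and 55.6 on ND-WT. There the KO arrays differed by -0.07 on the log2 scale, slightly past the repeat-spot SD. Against ND-WT, B2m was 2.18-fold higher on DM-WT, the 19th highest difference of 5601 genes usable on both. On DM-KO it was 1.00-fold its ND-KO level, a log2 difference of -0.00057. The standard error over pixels of the B2m spots was 4.26% to 4.83% of their intensity.

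The other class I genes differed less between arrays. H2-T23 encodes the heavy chain of Qa-1, which natural killer cells and some T cells read through CD94 and NKG2A. It had log2 intensities of 9.14 on DM-KO, 9.16 on ND-KO, 9.57 on DM-WT and 9.20 on ND-WT. DM-WT was highest, as for B2m, and the other 3 arrays of H2-T23 lay closer together than the repeat-spot SD. The closeness depended on the processing. DM-KO differed from ND-KO by -0.08 with median scaling and by -0.12 in the authors' deposited table, both past that SD. Before scaling between arrays, background-subtracted H2-T23 was at 596 on DM-WT and 572 on ND-WT. H2-M3, whose product presents peptides that begin with N-formylmethionine, was at 6.60 on DM-KO, 6.60 on ND-KO, 6.71 on DM-WT and 6.55 on ND-WT. H2-M9, another class I gene of the MHC's distal end, was at 6.71 on DM-KO, 6.76 on ND-KO, 6.62 on DM-WT and 6.90 on ND-WT. Here DM-WT was the lowest array rather than the highest.

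H2-Q6, of the Qa-2 group of class I genes, was at 7.68 on DM-KO and 7.56 on ND-KO, and its spots were marked poor on both WT arrays, so no value in WT is given. H2-Q6, H2-Q7 and their neighbours are close copies of each other, and signal on 1 probe may come from several of them. H2-K1 and H2-D1, the classical class I heavy chains, were not analysed here.

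The class II chains gave 3 nearly parallel profiles. H2-Aa, the I-A alpha chain, at chr17:34282744-34287823, had log2 intensities of 9.73 on DM-KO, 9.44 on ND-KO, 10.00 on DM-WT and 9.23 on ND-WT. H2-Ab1, the I-A beta chain that pairs with it, was at 8.99 on DM-KO, 8.60 on ND-KO, 9.14 on DM-WT and 8.39 on ND-WT. H2-Eb1, the I-E beta chain, was at 9.05 on DM-KO, 8.76 on ND-KO, 9.33 on DM-WT and 8.55 on ND-WT. All 3 had the same order, with DM-WT highest, then DM-KO, ND-KO and ND-WT, and every step between neighbours in that order exceeded the repeat-spot SD. With arrays scaled by their medians instead of quantile normalization, H2-Ab1 on DM-KO differed from DM-WT by only -0.02, which is within that SD. Before scaling between arrays, background-subtracted H2-Aa was at 840 on DM-KO and 831 on DM-WT. H2-Ab1 was then at 481 and 439, and H2-Eb1 at 500 and 505. The median over gene probes was 46.3 on DM-KO and 37.7 on DM-WT. The order of the diabetic arrays thus depended on the scaling. H2-Ea, the I-E alpha chain, was not above background on any array. C57BL/6 mice carry an H2-Ea allele that is not expressed, and RefSeq lists the gene as a transcribed pseudogene.

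**Figure D1:**
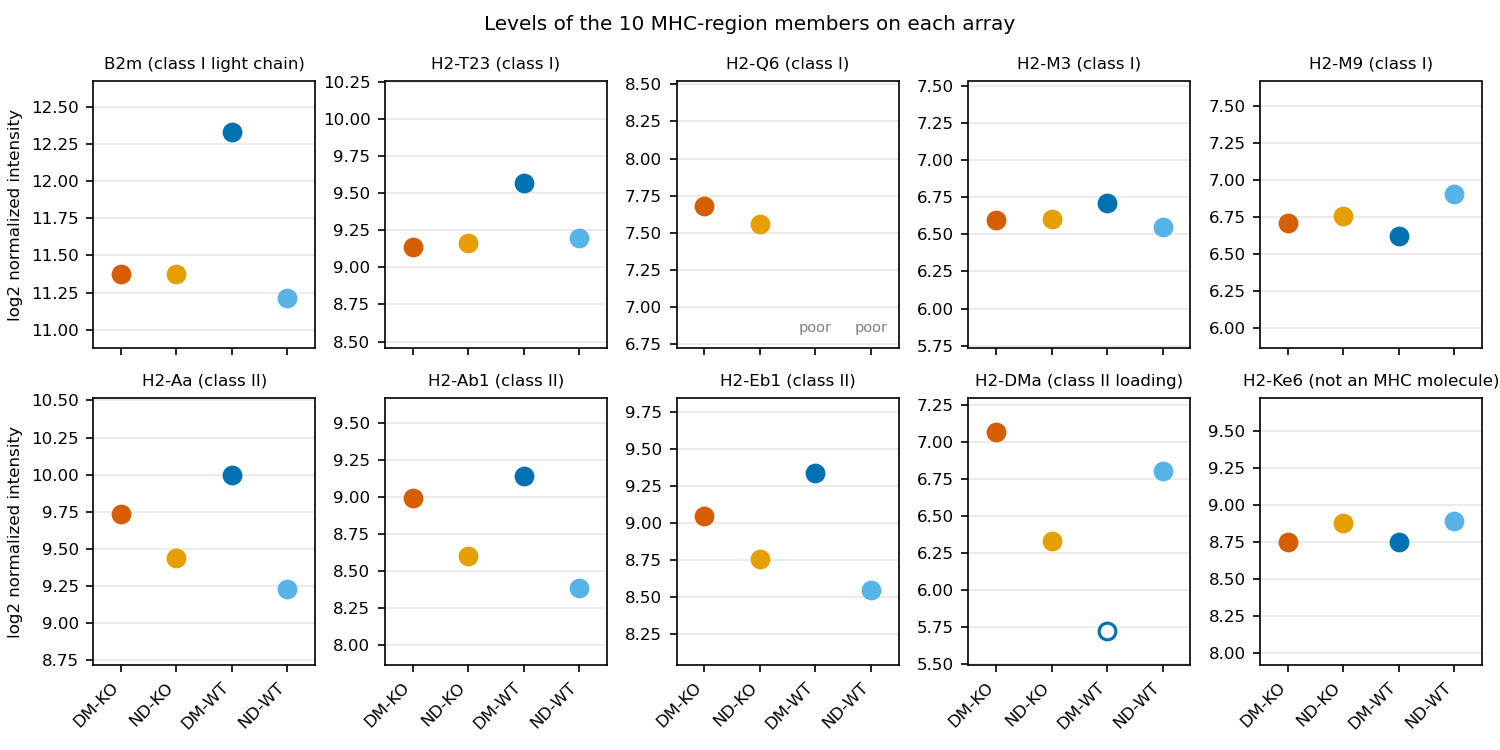
Log2 normalized intensity (vertical axes, each spanning 1.8 log2 units) of the 10 genes on the DM-KO, ND-KO, DM-WT and ND-WT arrays, 1 point per array with no replicates. Filled points are usable spots, the hollow point is not above background and "poor" marks spots left out. B2m stood at 12.33 on DM-WT and between 11.21 and 11.37 on the other arrays, while H2-Aa, H2-Ab1 and H2-Eb1 were higher on the diabetic array of both genotypes.

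H2-DMa encodes a chain of H2-M, the molecule that exchanges the invariant chain fragment in class II for antigenic peptide. It was at 7.06 on DM-KO, 6.33 on ND-KO and 6.80 on ND-WT, and its spot was not above background on DM-WT, where it read 5.72. The H2-DMa spot lay in column 48 of the upper block, among the edge spots, and its pixel standard error on DM-WT was 32.1%. Taken against the lowest usable level of that array, H2-DMa was at least 2.14-fold higher on DM-KO than on DM-WT and at least 1.78-fold lower on DM-WT than on ND-WT. The part of the edge in these values was not tested. H2-Ke6, whose symbol brought it under the rule, lies within the MHC but encodes 17-beta-hydroxysteroid dehydrogenase 8, an enzyme of steroid and fatty acid metabolism, and not an MHC molecule. It was at 8.75 on DM-KO, 8.88 on ND-KO, 8.75 on DM-WT and 8.89 on ND-WT. The H2-Ke6 level was thus slightly lower with diabetes in both genotypes and its genotype differences were smaller than the repeat-spot SD, although with median scaling that of DM-KO against DM-WT was 0.12.

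The first comparison asked what diabetes did to these genes where ICAM-1 was intact. On DM-WT against ND-WT, B2m was 2.18-fold higher, H2-Eb1 1.73-fold, H2-Aa 1.70-fold and H2-Ab1 1.69-fold. H2-T23 was 1.29-fold higher, with a log2 difference of 0.37, and H2-M3 was 0.16 higher. H2-Ke6 and H2-M9 had log2 differences of -0.14 and -0.28. Among the 8 genes with a usable spot on the 2 arrays, 4 passed 1.5-fold higher, against a background of 1.75% of all genes, and 0 were at least 1.5-fold lower, against 0.911%. Their median log2 difference was 0.56, against 0.00 over all 5601 genes. With arrays scaled by their medians in place of quantile normalization, 2 of 8 passed 1.5-fold, B2m at 0.96 and H2-Eb1 at 0.61, while H2-Aa at 0.57 and H2-Ab1 at 0.58 were just under the log2 threshold of 0.585 and H2-T23 was at 0.15. H2-Ke6 was then at -0.31, and in the authors' deposited table H2-M9 was at -0.54 and H2-M3 at 0.31.

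The same comparison without ICAM-1 gave smaller differences. On DM-KO against ND-KO, H2-Ab1 was 1.31-fold higher, H2-Aa 1.23-fold and H2-Eb1 1.22-fold. H2-Q6 had a log2 difference of 0.13, and H2-M3, H2-T23 and H2-M9 had -0.0052, -0.02 and -0.05. H2-DMa, the edge spot, was 1.66-fold higher, a log2 difference of 0.73 that was 1.40 in the authors' deposited table. It was the 1 gene of 10 at least 1.5-fold higher, against a background of 0.563% of all genes, and 0 were 1.5-fold lower, against 0.512%. The median log2 difference was 0.06, against -0.0034 over all 5864 genes.

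**Figure D2:**
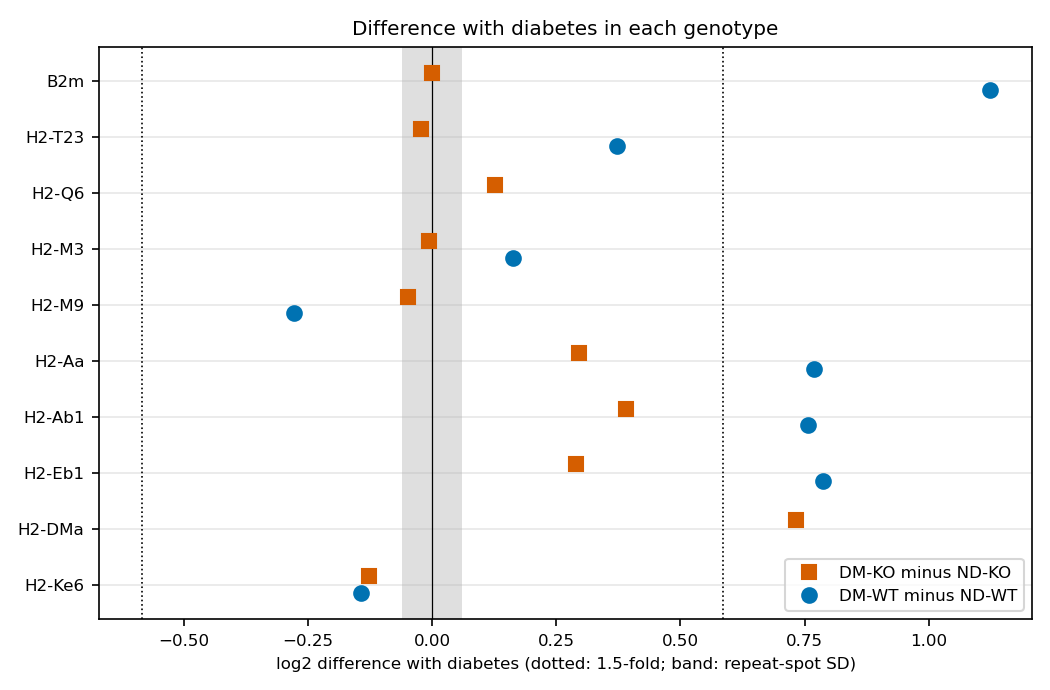
Log2 difference with diabetes (horizontal axis) of each gene in KO (squares) and in WT (circles), 1 array against 1 array. The grey band is the repeat-spot SD of 0.061 on either side of 0 and the dotted lines are 1.5-fold. B2m lies at -0.00057 in KO and 1.12 in WT, the 3 class II chains at 0.29 to 0.39 in KO and 0.76 to 0.79 in WT, and H2-Ke6 at -0.13 in KO and -0.14 in WT.

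The second question was whether the genotypes differed. Between the diabetic arrays, B2m was 0.514-fold on DM-KO of its DM-WT level, a log2 difference of -0.96, and H2-T23 was 0.743-fold, a difference of -0.43. H2-Eb1, H2-Aa and H2-Ab1 had log2 differences of -0.29, -0.27 and -0.15. With median scaling these became -0.15 for H2-Eb1, -0.12 for H2-Aa and -0.02 for H2-Ab1, the last smaller than the repeat-spot SD, and H2-T23 was at -0.29. Of 8 genes, 1 was at least 1.5-fold lower, against 1.06% of all genes, and 0 were 1.5-fold higher, against 0.778%. Between the nondiabetic arrays the class II chains were instead higher without ICAM-1, with log2 differences on ND-KO against ND-WT of 0.21 for each of H2-Aa, H2-Ab1 and H2-Eb1. B2m differed by 0.16 and H2-DMa by -0.47, and the other 4 genes by -0.15 to 0.05. Of 9 genes, 0 were 1.5-fold higher, against a background of 0.173%, and 0 were 1.5-fold lower, against 0.466%. With an offset of 16, and in the authors' deposited table, 1 of 9 was 1.5-fold lower, H2-DMa at -0.74 and -0.98.

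The difference with diabetes in WT minus that in KO was 1.12 for B2m on the log2 scale, the 13th highest of 5472 genes usable on all 4 arrays. It was 0.50 for H2-Eb1, 0.47 for H2-Aa, 0.40 for H2-T23, 0.37 for H2-Ab1 and 0.17 for H2-M3. It was -0.02 for H2-Ke6 and -0.23 for H2-M9, and in the authors' deposited table it was -0.44 for H2-M9 and 0.32 for H2-M3. The median over the 8 genes was 0.38, and 1 of them, B2m, passed 1.5-fold, against a background of 1.01% of all genes, and 0 passed it the other way, against 0.603%. With median scaling it was 1.01 for B2m, 0.37 for H2-Eb1, 0.33 for H2-Aa, 0.23 for H2-T23, 0.21 for H2-Ab1 and -0.16 for H2-Ke6. With 4 arrays no residual is left to test such a difference, and it was not tested. The 2 comparisons with diabetes share no array, but all 4 values of a gene enter this difference, so it moves with any 1 array that stands apart.

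**Figure D3:**
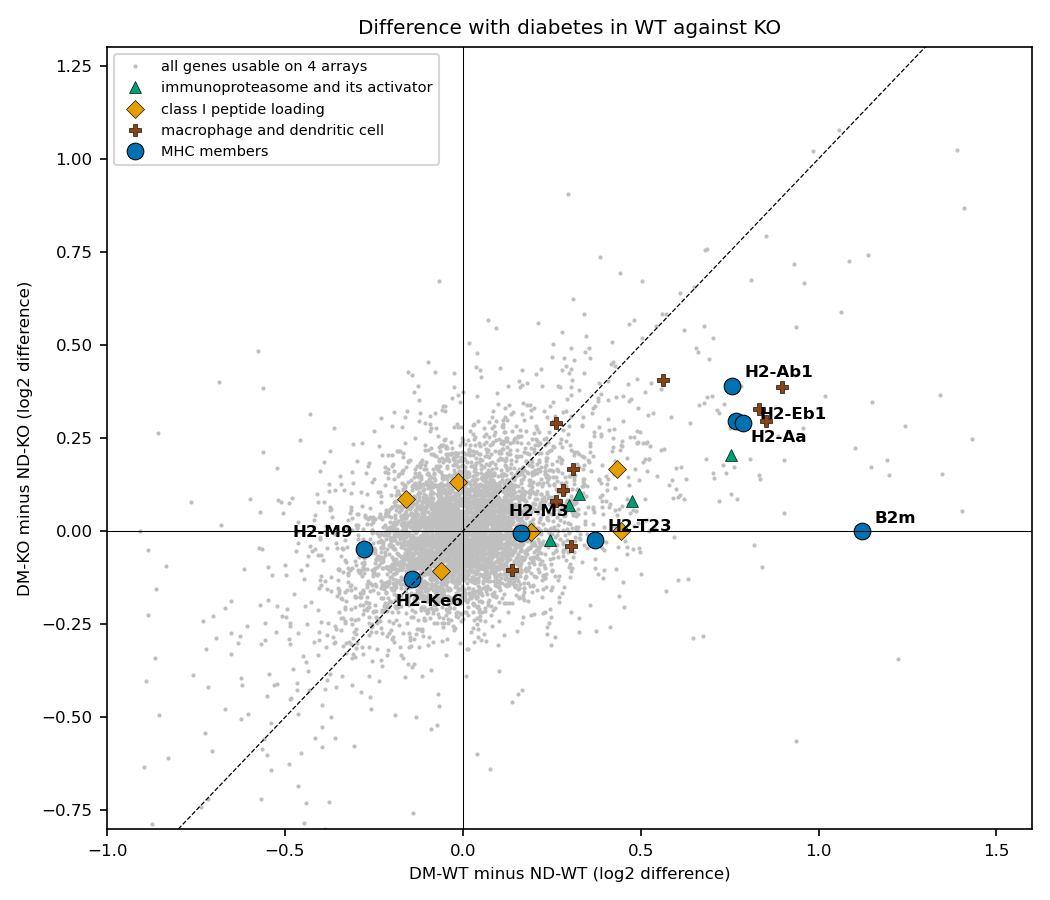
Log2 difference with diabetes in WT (horizontal) and in KO (vertical) for 5472 genes usable on all 4 arrays (grey, 26 outside the axes), with the MHC genes and 3 gene lists marked. The dashed line is equality. B2m sits at 1.12 in WT and close to 0 in KO, and the class II chains lie below the dashed line beside Psmb8, at 0.75 in WT and 0.20 in KO.

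The additive limma fit over the 4 arrays gave the available test. Its 1 residual degree of freedom per gene is the difference with diabetes in WT minus that in KO. limma moderates that residual with those of the other genes fitted. The p-values thus cover these 4 arrays only and measure no spread between replicate arrays or mice. H2-Ab1 had a diabetes coefficient of 0.57 ± 0.108 on the log2 scale (SE; limma adjusted p = 0.214), positive in both genotypes. H2-Eb1 had 0.54 ± 0.136 (limma adjusted p = 0.273) and H2-Aa 0.53 ± 0.131 (limma adjusted p = 0.271), also positive in both. B2m had a similar coefficient of 0.56 with an SE of 0.281, its values in the 2 genotypes being far apart, and a limma adjusted p of 0.498. None of the 9 genes tested passed in either direction, against a background of 1 gene in 6501 that rose (0.0154%) and 0 that fell. At an unadjusted p under 0.05 there were 3 of 9, the 3 class II chains, against 12.8% of all genes.

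Leaving out the edge spots took the calls over all genes to 0.805% that rose and 0.693% that fell, and 0 of 8 MHC genes passed. The lowest limma adjusted p among them was then 0.0646, for H2-Ab1, and over all alternatives that lowest value ranged from 0.0646 to 0.321. For genotype, 0 of 9 passed, against 0.0308% of all genes that rose and 0.0154% that fell, and without edge spots 0 of 8, against 0.0161% and 0.129%. The lowest limma adjusted p was 0.599, for H2-T23, with a coefficient of -0.23, and 0 of 9 had an unadjusted p under 0.05, against 9.09% of all genes.

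Among the 6 dimmer genes usable on at least 2 arrays, H2-Q1 had log2 differences with diabetes of 0.20 in KO and 0.34 in WT, and H2-Q5, a transcribed pseudogene, had -0.07 in KO and 0.28 in WT. H2-Q7, an edge spot, had 0.07 in KO and 0.28 in WT. H2-M10.1 had -0.0018 in KO and -0.04 in WT, and H2-Oa, a chain of the H2-O molecule that inhibits H2-M, had -0.04 in KO and -0.05 in WT. H2-T24 was usable only on the KO arrays, where it differed by 0.04. H2-Q10, H2-Ob, H2-Ea, H2-DMb2 and H2-T10 were not above background on any array.

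The genes of antigen processing were read from lists chosen for their function. Of the immunoproteasome, whose subunits replace those of the ordinary proteasome and cut peptides suited to class I, all 5 listed genes were above 0 in WT and 4 of 5 in KO, against 50.3% of all genes in WT and 48.6% in KO. Their median log2 difference was 0.08 in KO and 0.33 in WT. Psmb8, a catalytic subunit, had log2 intensities of 7.77 on DM-KO, 7.56 on ND-KO, 8.11 on DM-WT and 7.35 on ND-WT. It was the 1 gene of 5 at least 1.5-fold higher in WT, against 1.75% of all genes. In KO 0 of 5 were, against 0.563%. Psmb10, another catalytic subunit, differed by 0.08 in KO and 0.48 in WT, and Psmb9 by -0.02 in KO and 0.24 in WT. Psme1 and Psme2, the PA28 activator, differed by 0.07 and 0.10 in KO and by 0.30 and 0.33 in WT.

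Class I peptide loading was uneven, with a median of 0.04 in KO and 0.09 in WT over 6 genes. Tap2, a chain of the peptide transporter into the endoplasmic reticulum, differed by -0.00042 in KO and 0.45 in WT, and Tapbp (tapasin), which bridges the transporter to class I, by 0.17 in KO and 0.43 in WT. Erap1, which trims peptides, differed by -0.0035 in KO and 0.19 in WT. The general chaperones Calr, Canx and Pdia3 had values between -0.11 and 0.13 in KO and between -0.16 and -0.01 in WT. Tap1 was not above background on any array.

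On the class II side, Cd74, the invariant chain, was at 8.73 on ND-KO, 9.34 on DM-WT and 8.53 on ND-WT, and its spot was poor on DM-KO. Its difference in WT was 0.81. Ctss, the protease that degrades the invariant chain, was at 8.11 on DM-KO, 7.69 on ND-KO, 8.57 on DM-WT and 7.63 on ND-WT, which is 0.42 higher with diabetes in KO and 0.93 in WT. Both followed the order of the class II chains where they could be read, but Ctss on ND-KO and ND-WT differed by only 0.055, less than the repeat-spot SD. Ctsl differed by 0.06 in KO and 0.37 in WT, Ifi30, a lysosomal thiol reductase, by 0.07 in KO and 0.23 in WT, and the other 3 genes of the list by -0.0086 to 0.05 in KO and -0.11 to 0.22 in WT.

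Of the regulators, Irf1, a transcription factor of the interferon response, had log2 intensities of 6.78 on DM-KO, 6.83 on ND-KO, 6.98 on DM-WT and 6.63 on ND-WT. Irf9, another factor of that response, differed by 0.14 in KO and 0.46 in WT, and Ifngr1, a chain of the interferon gamma receptor, by 0.13 in KO and 0.10 in WT. Irf9 and Irf1 were highest on DM-WT, as B2m was, whereas the receptor chain was not. Ifng itself, Irf2, Irf8 and Ciita, the class II transactivator, were not above background on any array. Rfxank, Nfya, Nfyb and Nfyc, which bind the X and Y boxes, lay between -0.08 and 0.07 in KO and between -0.23 and -0.05 in WT.

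Class I-like genes outside the MHC lay in other orders. Azgp1, a secreted class I-like protein, had log2 intensities of 9.27 on DM-KO, 9.37 on ND-KO, 8.63 on DM-WT and 9.46 on ND-WT. It was thus lowest on the array on which B2m was highest. Fcgrt, the heavy chain of the neonatal Fc receptor, which also pairs with B2m, differed by 0.23 in KO and -0.24 in WT, and Hfe, which pairs with B2m too, by 0.33 in KO and 0.12 in WT. In limma 0 genes passed for diabetes or genotype on the peptide loading, immunoproteasome, class II processing, MHC transcription factor and class I-like lists. Over all genes, 0.0154% rose and 0 fell for diabetes, and 0.0308% rose and 0.0154% fell for genotype. The lowest limma adjusted p for diabetes on each list was between 0.224 and 0.511. At an unadjusted p under 0.05 for diabetes, 12.8% of all genes passed. On the lists, in the order named, it was 1 of 6, 1 of 5, 1 of 6, 0 of 4 and 1 of 5.

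By the root mean square difference of log2 values centred per gene over the 4 arrays, the 5 genes most like B2m were Irgm1 at 0.060, Rtp4 at 0.101, Tgtp1 and Cblif at 0.120 each, and Cxcl10 at 0.134. Irgm1 was printed among the edge spots. Irgm1, a GTPase, differed with diabetes by 0.15 in KO and 1.20 in WT, and Cxcl10, a chemokine, by 0.35 in KO and 1.15 in WT. The genes most like H2-Aa were H2-Eb1 at 0.0083, Psmb8 at 0.037, H2-Ab1 at 0.045, Igtp at 0.051 and Ifi47 at 0.064. H2-Eb1 was thus the nearest of 5472 genes to H2-Aa and H2-Ab1 the third. B2m ranked 909 in likeness to H2-Aa, and the highest ranked MHC gene in likeness to B2m was H2-Eb1, at 48. Such likeness over 4 arrays is a description of these arrays.

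**Figure D4:**
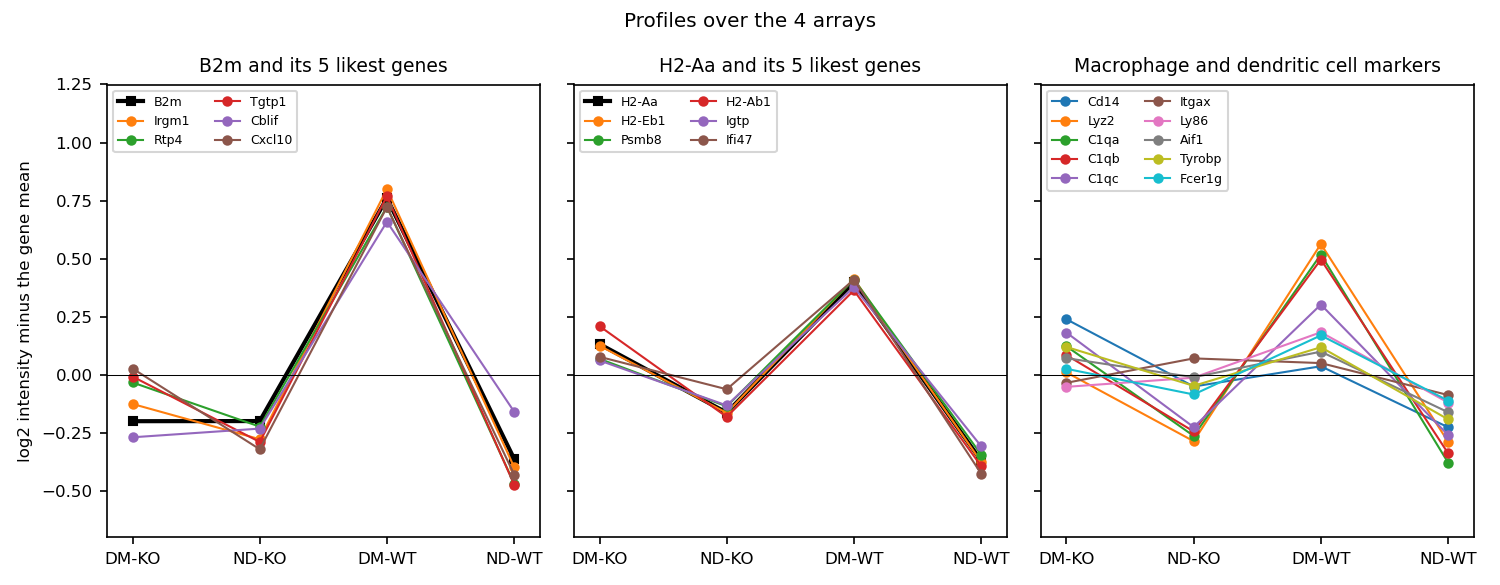
Log2 intensity minus the gene's mean over the 4 arrays (vertical axis) on DM-KO, ND-KO, DM-WT and ND-WT, for B2m and its 5 likest genes, H2-Aa and its 5 likest genes, and the 10 macrophage and dendritic cell markers usable on all arrays. Lines join the values of 1 gene. H2-Aa, H2-Eb1 and H2-Ab1 overlie each other, with a second, lower high point on DM-KO that B2m lacks.

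Markers of the leukocytes that carry class II were read beside these genes. The 10 macrophage and dendritic cell markers usable on all arrays summed to 22.3 on DM-KO, 17.5 on ND-KO, 28.8 on DM-WT and 15.9 on ND-WT in the scaled intensity of the authors' deposited table, the same order as the class II chains. With diabetes, 9 of 11 markers were above 0 in KO, against 48.6% of all genes, and 11 of 11 in WT, against 50.3%. Flt3 was counted in KO only and Mrc1 in WT only. At least 1.5-fold higher were 3 of 11 in WT, against 1.75% of all genes, and 0 of 11 in KO, against 0.563%. The 3 markers were C1qa, at 0.39 in KO and 0.90 in WT, C1qb, at 0.33 and 0.83, and Lyz2, at 0.30 and 0.85. Others ran differently. Cd14 differed by 0.29 in KO and 0.26 in WT, and was higher on DM-KO, at 6.75, than on DM-WT, at 6.55. Itgax and Ly86 differed by -0.11 and -0.04 in KO and by 0.14 and 0.30 in WT. Adgre1, Itgam and Ccr7 were not above background on any array. In limma 0 of 12 markers passed for diabetes, against 0.0154% of all genes that rose, and without edge spots 1 of 11 rose, against 0.805%. For leukocytes of all kinds, Laptm5, Cd52 and Cd53 summed to 3.553 on DM-KO, 3.105 on ND-KO, 3.433 on DM-WT and 2.615 on ND-WT. That sum was highest on DM-KO, unlike the class II chains, and Cd52 and Cd53 were edge spots. Laptm5 had log2 intensities of 6.44 on DM-KO and 6.43 on DM-WT.

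The 4 B and plasma cell markers usable on all arrays summed to 9.22 on DM-KO, 9.39 on ND-KO, 8.55 on DM-WT and 9.32 on ND-WT, with Cd79b and Ms4a1 not above background on any array. The members of that list did not run together. Cd79a, a chain of the B cell receptor complex, differed with diabetes by 0.17 in KO and -0.52 in WT, and Jchain, which joins immunoglobulin units in plasma cells, by -0.20 in KO and 0.45 in WT. Ighm, the immunoglobulin mu chain, was at 6.49 on DM-KO, 6.21 on ND-KO and 7.38 on DM-WT, and was not above background on ND-WT, where it read 6.03. It is not in the sum, and its limma diabetes coefficient was 0.82 (limma adjusted p = 0.357). The 3 T and natural killer cell markers, Cd4, Cd5 and Gzma, summed to 19.1 on DM-KO, 17.9 on ND-KO, 20.4 on DM-WT and 19.5 on ND-WT. That sum was mostly Gzma, at log2 intensities of 9.54 to 9.82, against 6.11 to 6.47 for Cd4 and Cd5. Cd5 differed with diabetes by -0.22 in KO and -0.08 in WT. Cd3e and Cd8a were not above background on any array. The endothelial markers summed to 27.4 on DM-KO, 25.6 on ND-KO, 26.7 on DM-WT and 27.2 on ND-WT. The 10 proximal tubule markers summed to 261 on DM-KO, 323 on ND-KO, 250 on DM-WT and 337 on ND-WT. The part of cell numbers in the MHC differences was not tested.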

How the data were processed

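RNA of kidney cortex from 4 groups was hybridised to 1 CodeLink array each. Per the file headers, the deposited spot tables hold linear mean intensity and median local background, with marks for usable, empty and poor spots. The authors' deposited value table holds intensity too, and matched spot mean minus background divided by 1 constant per array (38.1 to 46.9) within 0.1% for 100% of probes compared. How the constant was chosen is not given in the sources used here.

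Deposited intensities were background-corrected (normexp, offset 50), converted to log2 and quantile-normalized in limma 3.58.1 under R 4.3.3. Poor spots were set to missing, and values not above background entered the fit as they were. Of 10032 gene probes, 9289 had 1 symbol, 1 had several and 742 had none, and probes of a gene were averaged. The precision is limited by the number of arrays.

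Pairs of arrays were described by counts at 1.5-fold. A single additive limma fit tested diabetes and genotype with 1 residual degree of freedom over 6501 genes usable on at least 2 arrays. Benjamini-Hochberg adjustment was over all of them. Probes without a symbol counted as genes there, but not in the counts for pairs of arrays. A gene with a missing value left no residual and was not tested, as for H2-Q6, with 2 values, and Cd74, with 3. The fit was tested on simulated data. All MHC genes were accounted for, listed pathway genes could be named, and so could the 5 genes nearest B2m and H2-Aa. The members, lists, 1.5-fold threshold and alternatives were chosen with earlier results of these data known. Probe sequences were not used here, and 1 gene of the interferon list is not reported here.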

Additional observations from a re-analysis of the deposited data

Results flagged for a closer look

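A gene was flagged where its difference with diabetes ran in opposite directions in KO and WT. It was also flagged where its difference between genotypes ran in opposite directions in diabetic and nondiabetic mice. The rule set no minimum size, and all 8 of the selected genes usable on all 4 arrays met it. The share of all genes that meet the rule is not given here, so the flag does not set these 8 apart from other genes. Each group has 1 array, so the difference between these differences was not tested, and the value given is the log2 difference with diabetes in WT minus that in KO. Both kinds of opposition held for B2m, with a value of 1.12, and for H2-M3, with 0.17. The KO differences of both, -0.00057 and -0.0052, were smaller than the repeat-spot SD of 0.061. H2-T23 was opposite with diabetes, with a value of 0.40, and its KO difference of -0.02 was also smaller than that SD. H2-Eb1, H2-Aa and H2-Ab1, lower on DM-KO than on DM-WT and higher on ND-KO than on ND-WT, had values of 0.50, 0.47 and 0.37. H2-M9 had a value of -0.23, with log2 differences of 0.08 on DM-KO against DM-WT and -0.15 on ND-KO against ND-WT. H2-Ke6 had a value of -0.016, and both of its genotype differences were smaller than the repeat-spot SD; with median scaling the value was -0.16 and the difference on DM-KO against DM-WT was 0.12.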

How the results depend on the processing

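With arrays scaled by their medians, the median log2 difference over MHC genes was 0.36 for DM-WT against ND-WT, with 2 of 8 genes past 1.5-fold, -0.11 for DM-KO against DM-WT, and 0.22 for the difference with diabetes in WT minus that in KO. For DM-KO against ND-KO the median was -0.00047 without edge spots and -0.0029 over genes usable on all 4 arrays; both settings leave out H2-DMa. For the other changes the cause was not tested. No MHC gene passed limma under any of the 10 alternatives, with lowest adjusted p-values of 0.0646 to 0.321 for diabetes and 0.513 to 0.884 for genotype. Over all genes, calls for diabetes went to 50 that rose and 43 that fell of 6208 without edge spots, beside 1 and 0 of 6501 with them, and for genotype to 1 and 8, beside 2 and 1. Keeping genes usable on all 4 arrays, or the brightest probe, left 83 pairwise values of single genes exactly as they were by construction. Of the 213 under the other 5 alternatives, 170 kept their value within the repeat-spot error, 43 moved (19 with median scaling, 16 with the deposited table, 8 with an offset of 16) and 0 called values changed sign. No paired analysis was possible because the labels number no replicates and each group has 1 array. Leaving out an array was not run, since it leaves no residual degree of freedom. H2-M9, H2-M3 and H2-DMa, the dimmest of the 10 genes, had mean background-subtracted intensities of 58.9, 48.3 and 47.3. These lie near the offset of 50, which compresses fold differences. Of their spots, only that of H2-DMa on DM-WT, at 3.15, was not above background.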
